A study of Mus musculus with 2 samples.

Results

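The snoRNA host genes Gas5, Snhg1, Snhg3, Snhg5, Snhg6, Snhg8 and Snhg12 were taken by gene name from the deposited gene table and the deposited table of upstream windows. All 7 names were found once in each library, among 23288 genes listed. The libraries came from splenic B cells of fetal liver chimeric mice, in which grafted fetal liver gives rise to the blood system; how many cells of the recipients remained is not stated. The Nedd4-/- genotype is null for Nedd4, the gene of a HECT-type ubiquitin ligase, and the Nedd4+/+ genotype is wild type for it. Both genotypes had the mixed background that the labels give as B6:129-backcrossed to B6, and no ages of the animals are stated. Both cultures received lipopolysaccharide (LPS, a B cell mitogen of bacterial origin) and interleukin 4 (IL-4) for 72 hours, a combination that drives switching to IgG1. Total RNA was sequenced after ribosomal RNA removal, with 1 library per genotype. There was therefore no replicate spread and no p-value, and intervals below are 95% counting intervals that leave out variation between animals and cultures.

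Small nucleolar RNAs (snoRNAs) guide chemical modification or cleavage of ribosomal RNA. In mammals most are cut from introns of longer host transcripts after splicing. The host genes described here yield spliced RNAs without a long conserved reading frame, so the introns, and not the exons, carry the conserved product. Many such hosts, Gas5 among them, begin with a pyrimidine run like that of ribosomal protein mRNAs (a TOP sequence), and their spliced RNAs are degraded by the nonsense-mediated decay pathway when translated. Box C/D snoRNAs carry the boxes C and D and direct ribose methylation. Box H/ACA snoRNAs carry a hinge box H and a terminal ACA and direct pseudouridylation.

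The starts of the hosts are shown because the TOP sequence and the TATA letters lie there. RefSeq promoters (build GRCm38.p6, whereas the files use mm9) were at hand for 6 of the 7 genes, all but Snhg6. Each line holds 50 bases before and 30 bases from the annotated start, 5′ to 3′ on the gene's strand. Capitals mark TATA beginning 40 to 20 bases before the start, and a run of at least 5 pyrimidines that opens with C within 5 bases of the start. For Gas5 the second of 2 listed starts is shown; the first holds neither.
Gas5, chr1:161035116-161035195, plus strand: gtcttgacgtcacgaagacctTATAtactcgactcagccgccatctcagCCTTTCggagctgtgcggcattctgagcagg
Snhg1, chr19:8723437-8723516, plus strand: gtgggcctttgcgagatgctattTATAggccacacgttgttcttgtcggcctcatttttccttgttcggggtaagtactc
Snhg3, chr4:132353657-132353736, minus strand: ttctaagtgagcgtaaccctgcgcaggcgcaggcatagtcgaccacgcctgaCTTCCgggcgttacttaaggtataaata
Snhg5, chr9:88522868-88522947, minus strand: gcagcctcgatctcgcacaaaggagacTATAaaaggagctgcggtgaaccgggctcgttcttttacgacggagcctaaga
Snhg8, chr3:123508307-123508386, minus strand: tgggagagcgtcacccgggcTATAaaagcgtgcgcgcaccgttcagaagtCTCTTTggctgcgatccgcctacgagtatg
Snhg12, chr4:132308628-132308707, plus strand: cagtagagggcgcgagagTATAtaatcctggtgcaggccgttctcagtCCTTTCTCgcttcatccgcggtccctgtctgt
The pyrimidine run was present in 4 of the 7 promoters of these genes (Gas5, Snhg3, Snhg8 and Snhg12), against 18.3% of 32851 promoters in the table. TATA in that interval on the gene's strand was present in 5 of 7 (Gas5, Snhg1, Snhg5, Snhg8 and Snhg12), against 5.81% of all promoters. This interval was chosen after the promoters were seen. Over the whole 300 bases of each promoter (250 before the start and 50 after), on both strands, TATAAA was in 4 of 7 against 13.6%. CCAAT was in 3 of 7 against 37.4%, GGGCGG in 5 of 7 against 35.7%, and the E-box CACGTG in 0 of 7 against 7.15%. In Snhg3 the letters TATAAA lay 22 bases after the annotated start, with no TATA before it. These matches describe letters only.

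The libraries held 6.17 gigabases of reads in Nedd4-/- and 8.40 gigabases in Nedd4+/+ cells, as recovered from the steps in the deposited values. Nedd4 itself stood at 1.95 RPKM (a read density scaled to transcript length and library size) in the Nedd4-/- library and 7.59 RPKM in the Nedd4+/+ library, lower but not absent. In such bulk RNA, fewer cells of a type and less RNA per cell cannot be told apart. All 6 B cell markers were expressed, with summed levels of 1019 RPKM in Nedd4-/- and 1211 RPKM in Nedd4+/+ cells. The 6 T cell markers summed to 2.41 RPKM in Nedd4-/- and 1.91 RPKM in Nedd4+/+ cells. The 6 myeloid markers summed to 2.25 RPKM in Nedd4-/- and 1.28 RPKM in Nedd4+/+ cells, and the 5 erythroid markers to 3.32 RPKM in Nedd4-/- and 5.03 RPKM in Nedd4+/+ cells. None of these markers was at 0 in both libraries, and their part in the results was not tested. Xist, expressed from the inactive X chromosome, was at 0.0958 RPKM in Nedd4-/- and 23.7 RPKM in Nedd4+/+ cells, while the Y-linked Eif2s3y was at 18.8 RPKM in Nedd4-/- and 5.14 RPKM in Nedd4+/+ cells. The sex makeup of the libraries and the genotype therefore cannot be told apart in any comparison below. Most genes had a lower RPKM in the Nedd4-/- library: the median log2 ratio of 9405 genes with a mean of at least 1 RPKM was -0.31. Ratios here are Nedd4-/- over Nedd4+/+ with 1 RPKM added to both, and are also given relative to that median.

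Most of the host genes had ratios above that median, and Gas5 lay close to it. Of the 7, 6 were higher in the Nedd4-/- library than in the Nedd4+/+ library, whereas 7.32% of all genes tested were higher there. Counting intervals lay above 0 for 2 of the 7 (Snhg1 and Snhg12) and below 0 for 1 (Gas5), and held 0 for the rest. The share of all genes with such intervals is not given here, so whether these counts are unusual was not tested. All 7 hosts exceeded the all-gene median. Their median log2 ratio was 0.09, or 0.40 once the median of all genes was subtracted. That median holds for genes at 1 RPKM or more; over all 23288 genes, low ones included, the median log2 ratio was 0.02, and Gas5 lay below it. None reached a 2-fold difference, a size reached upward by 0.138% and downward by 1.15% of all genes. The count was also 0 at 1.5-fold, reached upward by 0.362% and downward by 11.6% of all genes. Relative to the median of all genes it was again 0 at 2-fold, reached upward by 0.276% and downward by 0.223%. Their summed level was 214 RPKM in Nedd4-/- and 208 RPKM in Nedd4+/+ cells.

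**Figure D1:**
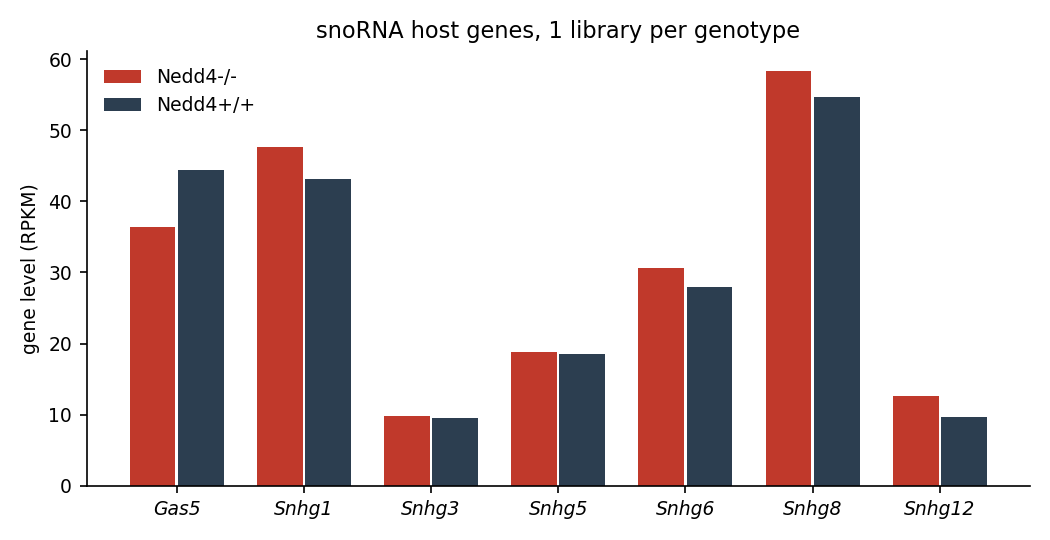
Gene level in RPKM (y axis) of each snoRNA host gene (x axis) in the Nedd4-/- library (red) and the Nedd4+/+ library (dark blue), 1 bar per library and no error bars. Gas5 is the gene whose bar is lower in Nedd4-/-, at 36.3 against 44.5 RPKM, and the other 6 bars are higher in Nedd4-/-, by the largest ratio in Snhg12, at 12.6 against 9.61 RPKM.

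Snhg12, whose introns carry both classes of snoRNA, had the largest ratio. It stood at 12.6 RPKM in the Nedd4-/- library, against 9.61 RPKM in the Nedd4+/+ library. Its log2 ratio was 0.35 (0.67 after subtracting the all-gene median), and the counting interval of 0.12 to 0.65, without added RPKM, lay above 0. Of all genes tested, 81 (0.861%) had a higher log2 ratio.

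Among the hosts of box C/D snoRNAs, Snhg1 and Snhg6 had small positive ratios. Snhg1, a host with 8 snoRNA loci, was at 47.7 RPKM in Nedd4-/- and 43.2 RPKM in Nedd4+/+ cells (log2 ratio 0.14, interval 0.01 to 0.27). Snhg6, host of Snord87, was at 30.6 RPKM in Nedd4-/- and 28.0 RPKM in Nedd4+/+ cells (log2 ratio 0.13, interval -0.07 to 0.33). Snhg5, host of the Snord50 pair, was nearly level, at 18.8 RPKM in Nedd4-/- and 18.5 RPKM in Nedd4+/+ cells (log2 ratio 0.03, interval -0.13 to 0.18). The intervals of Snhg6 and Snhg5 held 0, so at this depth no difference in RPKM was detectable for them.

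Gas5, named for its accumulation in growth-arrested cells, was the exception among the hosts. It was at 36.3 RPKM in Nedd4-/- and 44.5 RPKM in Nedd4+/+ cells, with a log2 ratio of -0.28 and an interval of -0.36 to -0.22. Relative to the median of all genes its ratio was 0.03, and 44.2% of genes had a higher one. Its direction thus depended on the scaling, lower as deposited and at the median once centred. The transcript linked to its row in GENCODE is annotated as a retained intron of 2556 nt whose exons hold 6 of the 9 snoRNA loci, so this row can hold snoRNA and intron reads.

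Among the hosts of box H/ACA snoRNAs, Snhg3, the source of the Snora73 (U17) pair needed for ribosomal RNA cleavage, was at 9.74 RPKM in Nedd4-/- and 9.51 RPKM in Nedd4+/+ cells. Its log2 ratio was 0.03 with an interval of -0.31 to 0.37, the widest of the 7. Snhg8, host of Snora24, had the highest level per length in both libraries, at 58.3 RPKM in Nedd4-/- and 54.7 RPKM in Nedd4+/+ cells. Its log2 ratio was 0.09, with an interval of -0.01 to 0.20.

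The Snhg8 level needs its snoRNA set beside it. Its linked transcript, annotated in GENCODE as a retained intron, has 1 exon of 776 nt that contains the Snora24 locus of 130 nt. The deposited row may have used other exons, so the shares below are approximate and their intervals leave out this error. At these lengths, taken from another build, the Snora24 locus held 73.5% of the read bases of the Snhg8 row in Nedd4-/- (exact interval 71.1 to 75.8%) and 72.2% in Nedd4+/+ cells (70.0 to 74.2%). The rest of the row was at 18.6 RPKM in Nedd4-/- and 18.3 RPKM in Nedd4+/+ cells, with a log2 ratio of 0.02. This separation was added after the values were seen. If the row has these lengths, Snhg8 without the Snora24 locus would rank with Snhg5 rather than first.

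**Figure D2:**
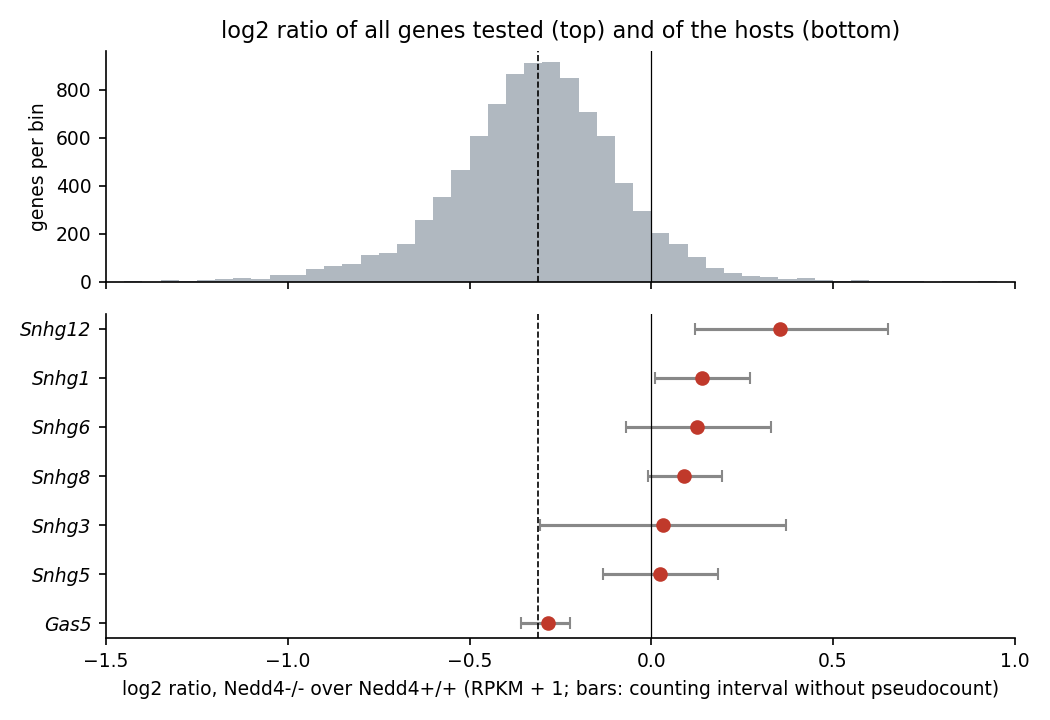
Top, number of genes per bin of log2 ratio among the 9405 genes tested (25 lie outside the plotted range). Bottom, log2 ratio of each snoRNA host gene (points, 1 RPKM added) with its 95% counting interval without added RPKM (bars). The dashed line is the median of all genes, -0.31; Gas5 sits beside it, and the other 6 hosts sit right of 0.

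By level per length the hosts kept nearly 1 order in both libraries: Snhg8 highest, then Gas5 and Snhg1, then Snhg6, Snhg5, Snhg12 and Snhg3. Gas5 and Snhg1 changed places, with Snhg1 the higher in Nedd4-/- and Gas5 the higher in Nedd4+/+ cells. With 1 library per genotype, the spread needed to separate neighbours in this order was not measured. The genes whose pair of levels lay nearest the hosts' median levels, over 2 libraries, were Snrpe (29.3 RPKM in Nedd4-/- and 29.6 RPKM in Nedd4+/+), Bcl2a1d (33.3 RPKM in Nedd4-/- and 27.2 RPKM in Nedd4+/+) and Polr2j (29.3 RPKM in Nedd4-/- and 30.2 RPKM in Nedd4+/+).

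Genes of similar level, of similar length or of the noncoding class had lower medians than the hosts. Among 2216 genes within the range of the hosts' levels, 75 (3.38%) were higher in Nedd4-/- and the median log2 ratio was -0.40. Among 4023 genes within the range of their transcript lengths, the median was -0.30. Among 326 other noncoding RefSeq rows that are not small RNAs, the median was -0.22 and 45 (13.8%) were higher in Nedd4-/-. Of these 326 rows, 219 exceeded the all-gene median, so a place above it was common in this class.

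Other noncoding snoRNA hosts had ratios like those of the 7. Of 10 further hosts tested, 10 exceeded the all-gene median, 6 were higher in Nedd4-/-, and their median log2 ratio was 0.08. Snhg10 was at 1.86 RPKM in Nedd4-/- and 0.947 RPKM in Nedd4+/+ cells (log2 ratio 0.55). Snhg7 was the lowest, at 6.20 RPKM in Nedd4-/- and 7.77 RPKM in Nedd4+/+ cells (log2 ratio -0.28). Protein-coding hosts, which carry snoRNAs in introns of ribosomal, translation and other genes (Hspa8 and Tcp1 among them), had a median of -0.35 over 29 genes. Among them, 12 exceeded the all-gene median and 1 was higher in Nedd4-/-: Rpl30, a ribosomal protein gene, at 19.3 RPKM in Nedd4-/- and 15.1 RPKM in Nedd4+/+ cells. Eef2, encoding a translation elongation factor, was the lowest, at 260 RPKM in Nedd4-/- and 475 RPKM in Nedd4+/+ cells (log2 ratio -0.87).

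**Figure D3:**
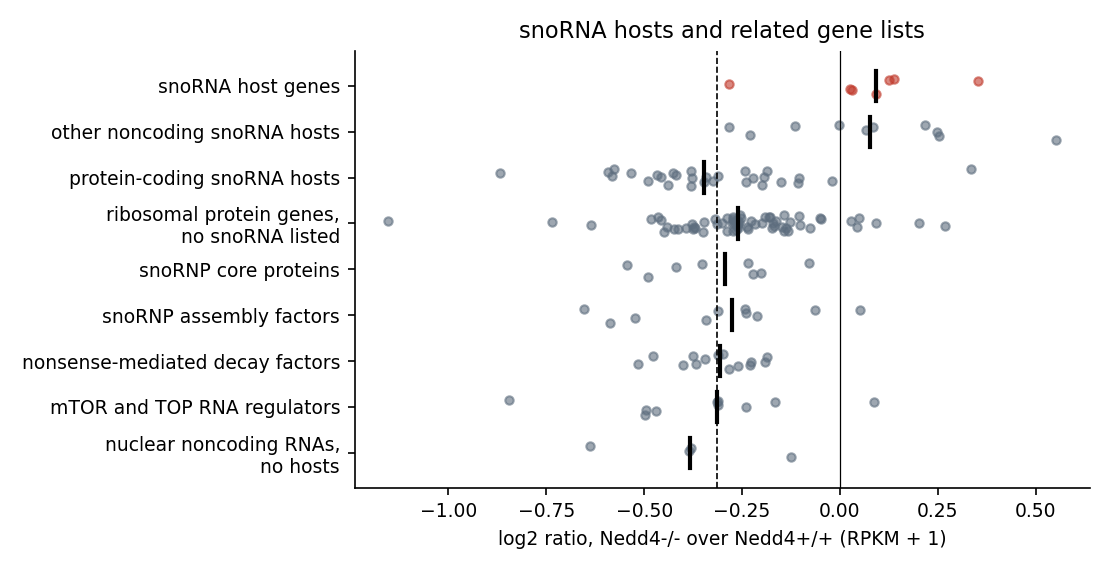
log2 ratio with 1 RPKM added (x axis) of each gene with a mean of at least 1 RPKM, by gene list (rows); short vertical bars are list medians and the dashed line is the median of all genes, -0.31. The 7 snoRNA host genes (red) and the 10 other noncoding hosts have medians of 0.09 and 0.08, and the other lists have medians of -0.26 or lower, apart from scatter of single genes to either side. The ribosomal protein genes marked as having no snoRNA listed are those outside the list of protein-coding hosts, and snoRNAs within them were not checked.

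Lists of genes that act with the hosts or share their TOP sequence, and of nuclear noncoding RNAs, had medians near that of all genes. Single genes in these lists lay further to either side. The 66 ribosomal protein genes outside the list of protein-coding hosts had a median log2 ratio of -0.26. Of them, 6 were higher in Nedd4-/- and 47 exceeded the all-gene median. Whether these genes carry snoRNAs of their own was not checked, so they are not a set without snoRNAs. The 8 core proteins of snoRNA particles had a median of -0.29 and 0 higher, with Gar1, a box H/ACA protein, at 1.63 RPKM in Nedd4-/- and 2.83 RPKM in Nedd4+/+ cells. The 10 assembly factors had a median of -0.28 and 1 higher. The 14 nonsense-mediated decay factors, which act on spliced host RNA, had a median of -0.31 and 0 higher. Upf1, the helicase at the centre of that pathway, was at 8.52 RPKM in Nedd4-/- and 12.6 RPKM in Nedd4+/+ cells (log2 ratio -0.52, or -0.20 after subtracting the all-gene median). The 10 regulators of mTOR and TOP RNAs also had a median of -0.31. Among them Eif4ebp1, a repressor of cap-dependent translation, was at 9.95 RPKM in Nedd4-/- and 18.7 RPKM in Nedd4+/+ cells. Its log2 ratio was -0.85, or -0.53 after subtracting the all-gene median. The 4 nuclear noncoding RNAs tested that host no snoRNA had a median of -0.38. Of all these genes, 1 was at least 2-fold lower (Rps16, a ribosomal protein gene) and 0 were at least 2-fold higher, so the lists differ in small shifts.

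The snoRNAs within the hosts are the second product of the same genes. GENCODE places 27 snoRNA loci within the 7 hosts, and 8 of these had a row in the gene table, spread over 5 hosts; no locus of Snhg3 or Snhg5 was measured. The sequences of the 4 snoRNAs of Snhg12 and of Snora24 are shown because Snhg12 is the host with the largest ratio and Snora24 lies in the exon of Snhg8. Capitals mark the box letters found, ANANNA (box H) and terminal ACA in the H/ACA class, and TGATGA and CTGA in the C/D class.
Snora16a: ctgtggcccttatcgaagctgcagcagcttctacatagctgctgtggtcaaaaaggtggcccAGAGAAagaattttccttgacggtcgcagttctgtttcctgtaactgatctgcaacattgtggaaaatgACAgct
Snora44: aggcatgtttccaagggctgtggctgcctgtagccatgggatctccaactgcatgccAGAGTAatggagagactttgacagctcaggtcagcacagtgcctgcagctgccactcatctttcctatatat
Snora61: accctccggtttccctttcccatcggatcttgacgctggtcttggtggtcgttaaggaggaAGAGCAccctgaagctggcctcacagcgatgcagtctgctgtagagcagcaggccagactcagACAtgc
Snord99: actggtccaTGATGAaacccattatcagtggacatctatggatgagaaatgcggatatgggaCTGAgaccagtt
Snora24: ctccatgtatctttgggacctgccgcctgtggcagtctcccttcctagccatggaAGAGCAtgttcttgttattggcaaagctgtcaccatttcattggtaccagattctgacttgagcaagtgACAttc
The letters ACA stood in the last 9 bases of 95% of 40 GENCODE H/ACA snoRNAs, and ANANNA in the middle of 90%. Snora44 lacked the ACA letters in that interval of the annotated locus. TGATGA stood in the first 25 bases of 71.1% of 97 C/D snoRNAs, and CTGA in the last 20 bases of 97.9%.

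Snora44 and Snora61 had ratios below that of their host Snhg12, whereas the interval of Snora16a overlapped that of the host and the interval of Snord99 held it. Snora44 was at 74.6 RPKM in Nedd4-/- and 99.3 RPKM in Nedd4+/+ cells (log2 ratio -0.41, interval -0.62 to -0.20), and Snora61 was at 170 RPKM in Nedd4-/- and 195 RPKM in Nedd4+/+ cells (log2 ratio -0.20, interval -0.34 to -0.06). Both intervals lay below 0, while that of the Snhg12 row lay above 0. Snora16a was nearly level, at 94.3 RPKM in Nedd4-/- and 93.1 RPKM in Nedd4+/+ cells. Snord99 was at 11.5 RPKM in Nedd4-/- and 9.49 RPKM in Nedd4+/+ cells, with an interval of -0.54 to 1.10 that held 0. Per length, Snora61 stood at 13.6 times the Snhg12 level in Nedd4-/- and 20.3 times in Nedd4+/+ cells, and Snora44 at 5.94 times in Nedd4-/- and 10.3 times in Nedd4+/+ cells. After subtracting the all-gene median the ratios of Snora44 and Snora61 were -0.09 and 0.12, so the direction of Snora61 depended on the scaling. The gap to Snhg12 does not depend on it: the log2 ratio minus that of the host was -0.76 for Snora44, -0.55 for Snora61, -0.34 for Snora16a and -0.09 for Snord99. In the other hosts with a measured snoRNA this gap was above 0. It was 0.20 for Snord47 (Gas5), 0.30 for Snord22 (Snhg1), 0.26 for Snord87 (Snhg6) and 0.03 for Snora24 (Snhg8). The intervals of Snord47, Snord87 and Snora24 held the ratio of their host.

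Of the other measured snoRNAs, Snora24 was at 256 RPKM in Nedd4-/- and 235 RPKM in Nedd4+/+ cells, or 4.39 times the level of the Snhg8 row in Nedd4-/- and 4.31 times in Nedd4+/+ cells. Snord47, from Gas5, was at 18.6 RPKM in Nedd4-/- and 19.9 RPKM in Nedd4+/+ cells. Snord87, from Snhg6, was at 8.70 RPKM in Nedd4-/- and 6.44 RPKM in Nedd4+/+ cells, with an interval of -0.46 to 1.33. Snord22, from Snhg1, was at 1005 RPKM in Nedd4-/- and 743 RPKM in Nedd4+/+ cells (log2 ratio 0.44, interval 0.37 to 0.50). Its mean depth per base was 6195 reads in Nedd4-/- and 6237 reads in Nedd4+/+ cells. The libraries differ in size by 0.45 on the log2 scale, so by arithmetic any row with a ratio near that size has almost equal depths. Snhg12 also had such depths, 77.4 reads per base in Nedd4-/- and 80.7 in Nedd4+/+ cells. Whether depth bears on either ratio was not tested. Snord22 lay above 2000 reads per base, a limit used for the medians below that was not among the planned settings. For that reason alone it was left out of those medians. Snora24, at 1978 reads per base in Nedd4+/+ cells, lay just under the limit and was kept. Over the 7 snoRNA rows below 2000 reads per base in both libraries, the median log2 ratio was 0.02, and 4 were higher in Nedd4-/- and 6 exceeded the all-gene median. Over all 87 tested snoRNA rows below that depth the median was -0.09; 31 were higher in Nedd4-/- and 64 exceeded the all-gene median, so a place above that median was common among snoRNA rows. The row named Rnu73b was at 1.62 RPKM in Nedd4-/- and 4.79 RPKM in Nedd4+/+ cells, but by annotation it lies in none of the 7 hosts and is not counted here. Reads from unspliced host RNA also count in snoRNA rows, so these rows need not follow the amount of mature snoRNA.

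**Figure D4:**
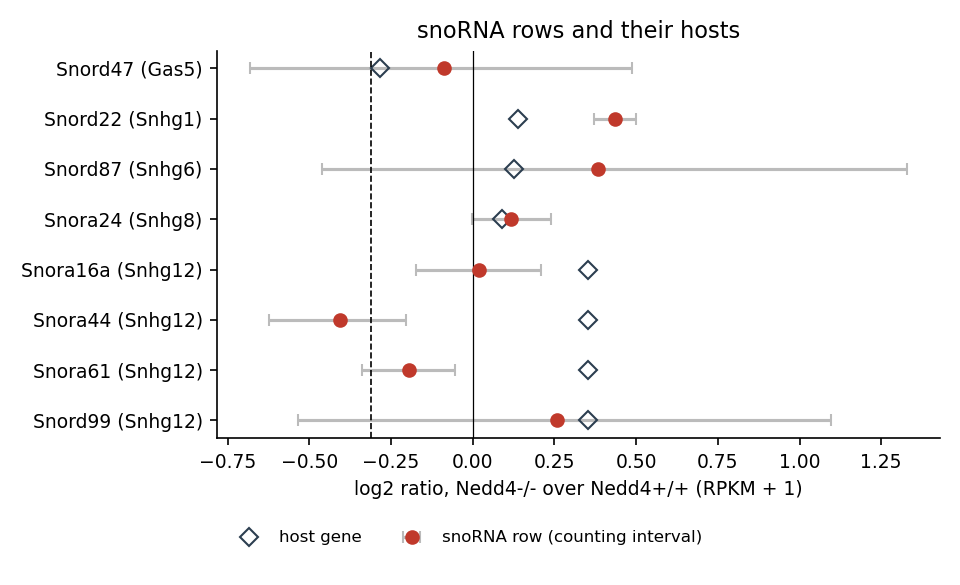
log2 ratio with 1 RPKM added (x axis) of each measured snoRNA (red points, with 95% counting intervals without added RPKM as bars) and of its host gene (open diamonds), by snoRNA and host (rows). The dashed line is the median of all genes, -0.31. Snora44 and Snora61 lie left of 0 while their host Snhg12 lies at 0.35. The intervals are approximate, as the snoRNA loci are shorter than a read pair.

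The second deposited measure gives reads in the 1 kb upstream of each gene, which holds upstream and antisense transcription and any transcript that overlaps it. The windows of all 7 hosts had more signal in the Nedd4-/- library, as did 71.2% of 11837 windows tested with a mean of at least 0.2 RPKM. Their log2 ratios have 0.1 RPKM added, while the intervals are those of the log2 ratio without added RPKM. Without added RPKM the log2 ratio was 1.99 for Snhg8 and 1.66 for Snhg5. The median over the 6 tested hosts was 0.54, against 0.41 over all windows, so as a group the hosts' windows stood near the rest.

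Snhg8 had the largest upstream difference, with 0.743 RPKM in Nedd4-/- and 0.187 RPKM in Nedd4+/+ cells, or about 22.7 read pairs in Nedd4-/- and 7.78 in Nedd4+/+ cells. Its log2 ratio was 1.55, with an interval of 0.76 to 3.38, and 4.06% of windows had a higher ratio. Snhg5 followed with 0.418 RPKM in Nedd4-/- and 0.132 RPKM in Nedd4+/+ cells, or about 12.8 read pairs in Nedd4-/- and 5.50 in Nedd4+/+ cells (log2 ratio 1.16, interval 0.12 to 3.42). These 2 hosts passed a 2-fold difference, as did 19.8% of all windows, and the same count of hosts passed 1.5-fold, as did 40.8% of all windows. None was 2-fold lower, against 0.794% of all windows. With 0.5 RPKM added in place of 0.1, 0 hosts passed 2-fold, at log2 ratios of 0.85 for Snhg8 and 0.54 for Snhg5. Relative to the median of all windows Snhg8 alone passed it, at 1.14, as did 6.5% of all windows. Among the 7823 windows with a mean of 0.2 to 0.5 RPKM, the range that holds both, 28.1% were at least 2-fold higher in Nedd4-/-.

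The other windows had intervals that held 0. The share of all windows with intervals above 0 is not given here. Gas5 had 0.883 RPKM upstream in Nedd4-/- and 0.640 RPKM in Nedd4+/+ cells, and Snhg1 had 0.867 RPKM in Nedd4-/- and 0.696 RPKM in Nedd4+/+ cells. Snhg3 had 0.306 RPKM in Nedd4-/- and 0.181 RPKM in Nedd4+/+ cells, and Snhg6 had 0.258 RPKM in Nedd4-/- and 0.147 RPKM in Nedd4+/+ cells. Snhg12 had 0.1997 RPKM in Nedd4-/- and 0.0842 RPKM in Nedd4+/+ cells, under the minimum for testing. A single read pair in a window was worth 0.0328 RPKM in the Nedd4-/- library and 0.0241 RPKM in the Nedd4+/+ library, so these values rest on few pairs.

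**Figure D5:**
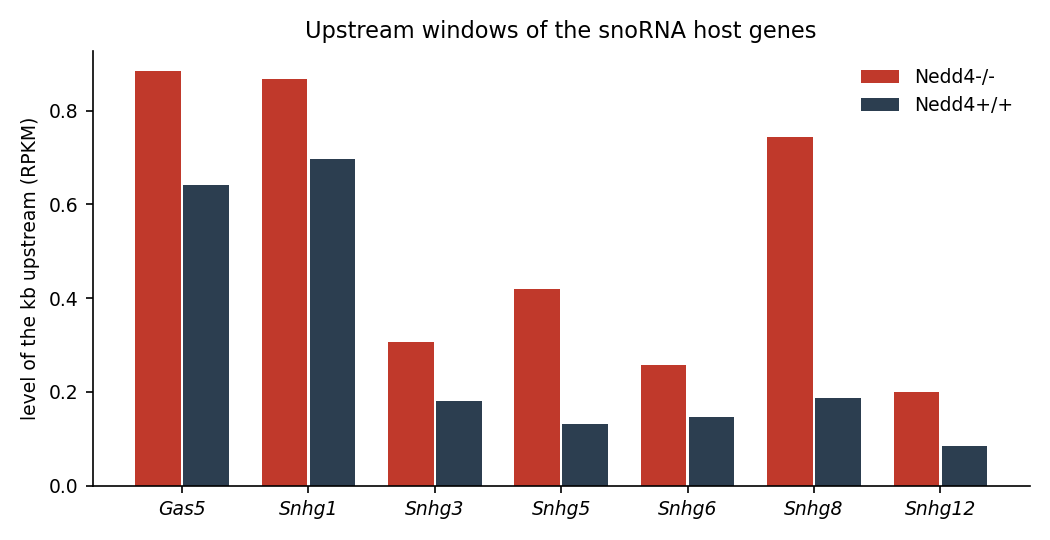
Level in RPKM (y axis) of the kb upstream of each snoRNA host gene (x axis) in the Nedd4-/- library (red) and the Nedd4+/+ library (dark blue), 1 bar per library and no error bars. Every red bar is higher, with the widest gap at Snhg8, 0.743 against 0.187 RPKM.

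Set against their own genes, the hosts' windows were low. The window stood at a median of 1.82% of the gene's level in Nedd4-/- and 0.876% in Nedd4+/+ cells, while over all genes tested it stood at 10.2% in Nedd4-/- and 4.76% in Nedd4+/+ cells. Genes within the hosts' range of levels had medians of 3.26% in Nedd4-/- and 1.53% in Nedd4+/+ cells. Low shares were not particular to the hosts. Protein-coding snoRNA hosts had medians of 1.21% in Nedd4-/- and 0.679% in Nedd4+/+ cells, and core proteins of snoRNA particles 1.14% in Nedd4-/- and 0.765% in Nedd4+/+ cells. The other noncoding hosts stood higher, at 6.68% in Nedd4-/- and 2.49% in Nedd4+/+ cells. In GRCm38 annotation, 2 hosts share their upstream kb with a gene on the other strand. Zbtb37, a zinc finger gene whose start lies 317 nt from that of Gas5, was at 1.89 RPKM in Nedd4-/- and 2.44 RPKM in Nedd4+/+ cells. Slc3a2, which encodes the heavy chain of amino acid transporters and starts 106 nt from Snhg1, was at 8.23 RPKM in Nedd4-/- and 17.3 RPKM in Nedd4+/+ cells. Its log2 ratio of -0.99, or -0.67 after subtracting the all-gene median, ran against the 0.14 of Snhg1 across their shared promoter region.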

How the data were processed

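Total RNA after ribosomal RNA removal was sequenced from 1 Nedd4-/- and 1 Nedd4+/+ culture, grouped by title. Per the submitters' processing notes, TopHat, Cufflinks and build mm9 were involved, without versions or roles; strand and multiple matches are not given there. The deposited gene values are RPKM, per the file headers. The deposited upstream values are a ratio: window level over gene RPKM plus 0.0001. Multiplying back gave whole numbers of read bases, within 0.05 bases, in 12512 of 12512 low Nedd4-/- windows and 16817 of 16819 low Nedd4+/+ windows, and so the depth.

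The design had foreseen that ratio. Genes needed a mean of 1 RPKM and windows a mean of 0.2 RPKM; 1 or 0.1 RPKM was added before log2, which understates differences of low genes. Recovered bases over 202 nt (a read pair) gave exact Clopper-Pearson 95% intervals, which cover counting error alone, as PCR copies of a molecule were not told apart. The snoRNA loci are shorter than 202 nt, so for them these intervals are approximate. Transcript lengths come from GENCODE on GRCm38, so numbers of pairs per gene are approximate. Of 15 other noncoding hosts listed, 11 were found, 6 of them by RefSeq synonyms, and 10 were tested. The row Rnu73b, listed with the snoRNAs, lies in none of the hosts by annotation and was set aside. Named are the hosts, list genes among the 4 with the largest absolute ratios, divergent neighbours, and 3 genes of like level; Rpl30 was singled out once its values were known. Alternatives varied the pseudocount, the filter, the fold and the centring. The members and lists were chosen with earlier results of these data known. Code was tested on simulated data. Python 3.11.15, pandas 2.3.3 and scipy 1.17.1 were used.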

Additional observations from a re-analysis of the deposited data

How the results depend on the processing

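Scaling moved the gene results most. The hosts' median log2 ratio of 0.09 became 0.40 relative to the median of all genes tested and 0.39 relative to the median of genes in their length range. Gas5 turned from -0.28 to 0.03 and 0.02 with the same steps, and all 7 hosts were then above 0. With a pseudocount of 0.1 or 5 RPKM, 14 of 14 single values stayed within their counting intervals. This outcome was largely set in advance, as the hosts' levels were 9.51 RPKM or more and the intervals use no added RPKM. A filter cannot change a gene's own ratio, but without one the median of all genes was 0.02 in place of -0.31. The count of hosts at least 2-fold different stayed 0 in either direction, also at 1.5-fold, a size reached upward by 0.362% of genes.

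For the windows, the count at least 2-fold higher was 2; it was 0 with a pseudocount of 0.5 RPKM and 1 relative to the median of all windows. The median ratio of the windows lay between 0.12 (relative to all windows) and 0.72 (pseudocount of 0.02 RPKM), on 1 side of 0. A minimum of 1 RPKM left 0 host windows and gave no value. No paired analysis was possible because each genotype had 1 library, and for the same reason no replicate could be left out. Depth limits the windows, which hold between 3.5 and 28.9 read pairs.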
